A study of Mus musculus with 42 samples.

Results

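The AlkB family comprised 9 genes, Alkbh1 to Alkbh8 and Fto, taken by symbol from the 55401 genes listed in each of 42 RNA-seq libraries. All 9 were listed in every library and passed the filter on low values, a mean of at least 1 TPM in each cell line. The libraries held polyadenylated RNA of 7 mouse cancer cell lines, and the study's title names splice-derived neoepitopes as its subject. The lines were B16 (melanoma), CT26 (colorectal adenocarcinoma), EG7 (lymphoma), LLC (lung carcinoma), MC38 (colorectal carcinoma), Pan02 (pancreatic adenocarcinoma) and WEHI3 (leukemia). Cells of each line had received 10 µM RECTAS in 0.1% DMSO, or 0.1% DMSO alone, and were collected after 6 h. There were 14 groups with 3 libraries in each, and each tumour type other than colorectal was represented by a single line. Separate cultures are not stated for the replicates of a group, so p-values capture the spread of these libraries alone, which may be technical.

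AlkB proteins are iron- and alpha-ketoglutarate-dependent dioxygenases, named after the AlkB repair protein of Escherichia coli, most of which oxidise methyl groups on nucleic acids or proteins so that the methyl group is lost. Alkbh2 and Alkbh3 repair alkylated bases, Alkbh2 mainly in double-stranded DNA and Alkbh3 in single-stranded DNA and in RNA. Alkbh5 and Fto remove N6-methyladenosine from RNA, Alkbh1 and Alkbh8 act on transfer RNA, Alkbh4 has been linked to demethylation of actin, and Alkbh7 is a mitochondrial protein linked to programmed necrosis. RECTAS is a small molecule that modulates pre-mRNA splicing and whose known route of action involves the kinases of the CLK family and the splicing factor Srsf6. Alkbh3 had been singled out by earlier results of these data for its difference between RECTAS and DMSO, so its values in that contrast are given as a description, with no test. The other 8 genes were taken by family name and were tested.

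Alkbh3 (ENSMUSG00000040174) lies on the minus strand at chr2:93980550-94010807 of GRCm38. The GENCODE M21 annotation lists 11 transcripts of the gene, of which 3 are protein coding. The protein-coding transcript drawn in the map of the locus has 10 exons, and 7 of them are wholly coding. The lengths of 4 of these 7 exons are not a multiple of 3, so that a transcript without one of them would leave the reading frame. The deposited values were summed per gene and do not resolve exons, so exon use was not measured. The 2 shortest coding exons are shown because the compound is a splicing modulator and Alkbh3 is the member whose level differed most. The sequences were read from the GENCODE M21 transcripts, 5′ to 3′ on the minus strand, and the capitals mark the first and last 3 bases, next to the splice sites. Exon 4 lies at chr2:94006847-94006881 and exon 5 at chr2:94004733-94004780.
Alkbh3 exon 4: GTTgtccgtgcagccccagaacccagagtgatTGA
Alkbh3 exon 5: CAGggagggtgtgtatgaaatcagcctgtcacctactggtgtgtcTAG
Exon 4 has 35 bases and exon 5 has 48, so the first would shift the frame if left out and the second would not.

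**Figure D1:**
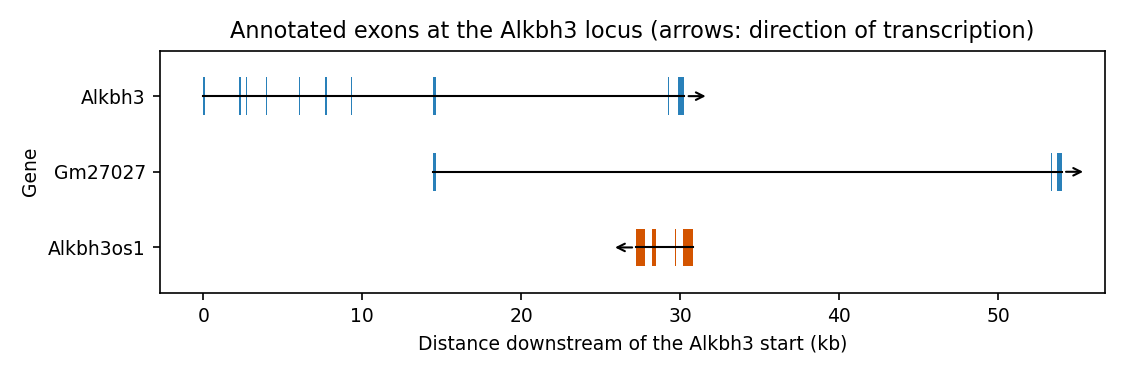
Annotated exons of Alkbh3 and of the genes that share exonic bases with it, by distance downstream of the Alkbh3 start in kb. Each row is a gene, boxes are exons and arrows give the direction of transcription. Gm27027 shares 172 exonic bases with Alkbh3 on the same strand, and Alkbh3os1 shares 85 on the opposite strand.

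The map of annotated exons sets Alkbh3 beside the genes that share exonic bases with it. Over the exons of all 11 transcripts of Alkbh3, the shared bases were 5.44% for Gm27027 and 2.69% for the antisense gene Alkbh3os1. The share of the drawn transcript alone was not measured. Gm27027 was listed at 0 TPM in 35 of the 42 libraries and at no more than 0.38 TPM in any. Alkbh3os1 ranged between 0.02 and 0.41 TPM over the 42 libraries. Both neighbours were therefore far below Alkbh3, which was at 17.8 TPM or more in every library.

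The lines carried the markers of their labelled origin to differing degrees. In DMSO, 8 of 8 melanocyte markers reached 1 TPM in B16, 8 of 10 T lymphoid markers did so in EG7, and 8 of 9 myelomonocytic markers did so in WEHI3. WEHI3 also had 4 of 10 T lymphoid markers at 1 TPM, with a mean over that list of 221 TPM against 199.7 TPM in EG7. B16 had 2 of 9 myelomonocytic markers at 1 TPM, with a list mean of 90.02 TPM against 209.7 TPM in WEHI3. Of 9 epithelial markers, 6 reached 1 TPM in Pan02 and 2 in LLC, but 0 did so in CT26 and 0 in MC38, so the epithelial origin of these last lines is not visible in this list. Of 9 mesenchymal markers, 9 reached 1 TPM in CT26, 7 in each of B16, LLC, MC38 and Pan02, 3 in WEHI3 and 2 in EG7. Read depth is unknown, because TPM is a share of all transcripts and not a count. The libraries held between 11001 and 12205 genes at 1 TPM or more, and replicates correlated at 0.995 to 0.997 across genes. The first principal component of the differences between replicates, called the main axis of replicate variation here, held 14.5% of the variance within groups and was computed without the 9 family members. Replicate 2 of LLC in DMSO stood farthest along it, at 3.11 SD, against -1.98 and -1.44 SD for the other LLC libraries in DMSO. Replicate 2 of LLC with RECTAS lay on the same side, at 1.91 SD, against -0.04 and -1.57 SD for the other LLC libraries with RECTAS. Scores are given around the mean of each line.

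Alkbh3 was lower with RECTAS than with DMSO in all 7 lines, and the 3 RECTAS libraries lay below the 3 DMSO libraries in every one of them. Averaged over the lines, Alkbh3 was at 31.4 TPM with RECTAS and at 50.1 TPM with DMSO. The mean of the 7 within-line differences on the log2(TPM + 1) scale was -0.65 (SE 0.0237), a scale that understates the change of genes with low TPM. Of 8775 genes tested, 9.29% were lower in 7 of 7 lines by sign, and the median difference over all genes was -0.0028 on the same scale. In single lines, the RECTAS libraries lay all below the DMSO libraries in 14.2% of gene and line pairs. A share of genes without overlap in all 7 lines is not given here. RNA from whole cultures cannot tell fewer cells with the transcript from less transcript in each cell.

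In B16, Alkbh3 was at 30.0, 32.2 and 29.6 TPM with RECTAS, against 47.7, 50.02 and 45.1 TPM with DMSO. In CT26 it was at 30.3, 30.1 and 32.0 TPM with RECTAS, against 53.4, 51.95 and 52.5 TPM with DMSO. In both lines the gap between the treatments was wider than the range of the replicates. In MC38, which had the highest Alkbh3 level in DMSO, the libraries had 42.5, 41.3 and 38.2 TPM with RECTAS and 65.5, 58.7 and 60.8 TPM with DMSO. In Pan02, values were 29.0, 30.8 and 32.9 TPM with RECTAS, against 58.3, 56.7 and 50.2 TPM with DMSO. Pan02 showed the widest difference on the log2 scale, and its lowest DMSO library was still well above all its RECTAS libraries. LLC libraries were at 33.8, 32.1 and 34.8 TPM with RECTAS and at 55.0, 53.5 and 55.5 TPM with DMSO. The LLC library that stood apart, replicate 2 of DMSO, was close to the other DMSO libraries for Alkbh3.

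The blood-derived lines had the smallest differences in TPM. EG7 had 36.1, 32.9 and 33.5 TPM with RECTAS, against 47.6, 52.2 and 50.1 TPM with DMSO. WEHI3 had 17.8, 20.9 and 19.2 TPM with RECTAS, against 26.9, 28.6 and 32.2 TPM with DMSO. WEHI3 was lowest of the 7 lines with either treatment, and its groups did not overlap either.

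**Figure D2:**
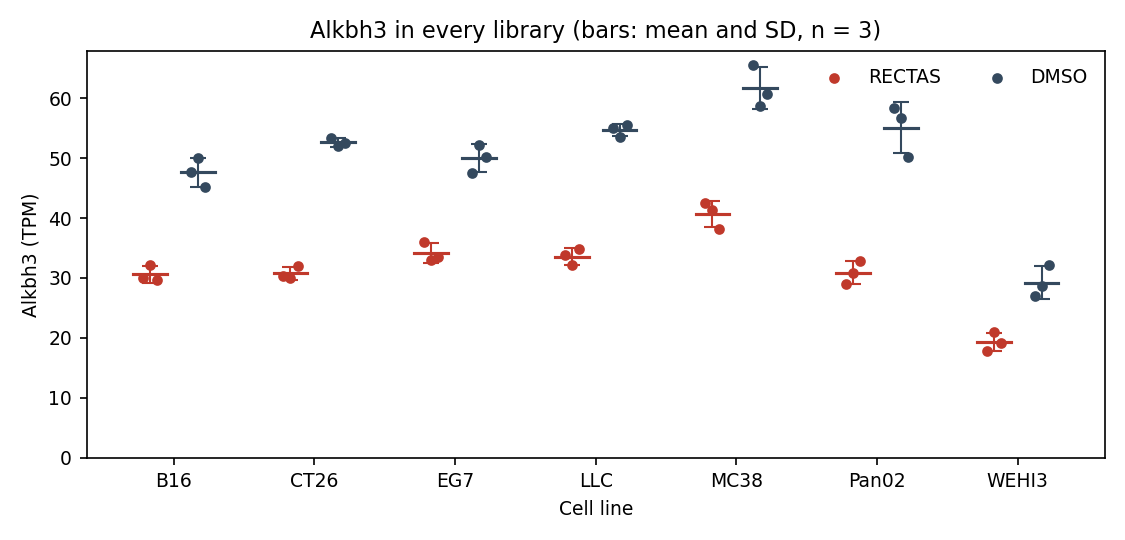
Alkbh3 in TPM (y axis) in each library of the 7 lines (x axis), with RECTAS left of DMSO in each line; points are libraries and bars give the mean and SD of 3. The RECTAS libraries lie below the DMSO libraries in every line, with means between 19.3 TPM in WEHI3 and 40.7 TPM in MC38 with RECTAS.

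The plot of Alkbh3 by library shows the same order of the treatments in lines that differ in level. The mean with RECTAS was 56.1% of the DMSO mean in Pan02, 58.5% in CT26, 61.4% in LLC, 64.3% in B16, 66.0% in MC38, 66.1% in WEHI3 and 68.4% in EG7. On the log2(TPM + 1) scale the differences ran between -0.81 (SE 0.0696) in Pan02 and -0.54 (SE 0.0489) in EG7. The 3 libraries of a group differed with an SD of up to 4.28 TPM, seen in Pan02 with DMSO. When genes were ordered by log2 difference, most negative first, Alkbh3 was at place 44 of 11589 genes in Pan02 and at place 51 in both CT26 and LLC, of 11938 and 11848 genes. It was at place 151 of 12097 in B16, the least extreme of its places counted from the bottom of the order. Whether the differences of Alkbh3 vary between lines was not tested, since the gene was chosen on this contrast.

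The place of Alkbh3 within the family is computed from the same values. It reflects the contrast for which the gene was chosen, so it is a description and not a separate result. TPM corrects for transcript length, so levels can be compared between genes on this scale. With DMSO, Alkbh3 ranked first of the 9 members in 6 lines and number 4 in WEHI3. With RECTAS it ranked first in EG7, MC38 and Pan02, and Fto had the highest mean in the other lines. Alkbh3 made up 17.6 ± 0.912% of the summed TPM of the 9 members in Pan02 with RECTAS, against 27.3 ± 1.04% with DMSO (SD, n = 3 each). In WEHI3 the share was 8.93 ± 0.654% with RECTAS and 12.9 ± 1.14% with DMSO (SD, n = 3 each). WEHI3 had the lowest share of the 7 lines with either treatment. The ratio of Alkbh3 to Alkbh2, the other DNA repair member, was 6.79 in Pan02 with RECTAS, against 12.0 with DMSO. In WEHI3 the ratio was 0.482 with RECTAS and 0.720 with DMSO, so Alkbh2 exceeded Alkbh3 there with both treatments. Alkbh2 shares exonic bases with Usp30 on the opposite strand, and the strand setting of the counting is not given, so these ratios are uncertain.

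The other 8 members were tested for the mean of the 7 within-line differences, with limma on log2(TPM + 1) and adjustment over all 8775 genes. Alkbh1 and Alkbh8 fell, Alkbh6 rose, and Alkbh2, Alkbh4, Alkbh5, Alkbh7 and Fto did not pass an adjusted p of 0.05. Of all genes tested, 25.8% passed, 15.9% as lower and 9.86% as higher, so 3 of 8 members is near the background. In single lines, 3 of 56 pairs of member and line were called lower by limma and 0 higher. Over all genes, 2.08% of 82332 gene and line pairs were called, 1.45% as lower and 0.628% as higher. All 3 were Alkbh8. The remaining 49 pairs gave 0 calls, and 8 of them had an unadjusted p under 0.05. The 3 RECTAS libraries lay all below the 3 DMSO libraries in 8 of the 56 pairs and all above in 4, against 14.2% and 10.1% of all gene and line pairs.

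**Figure D3:**
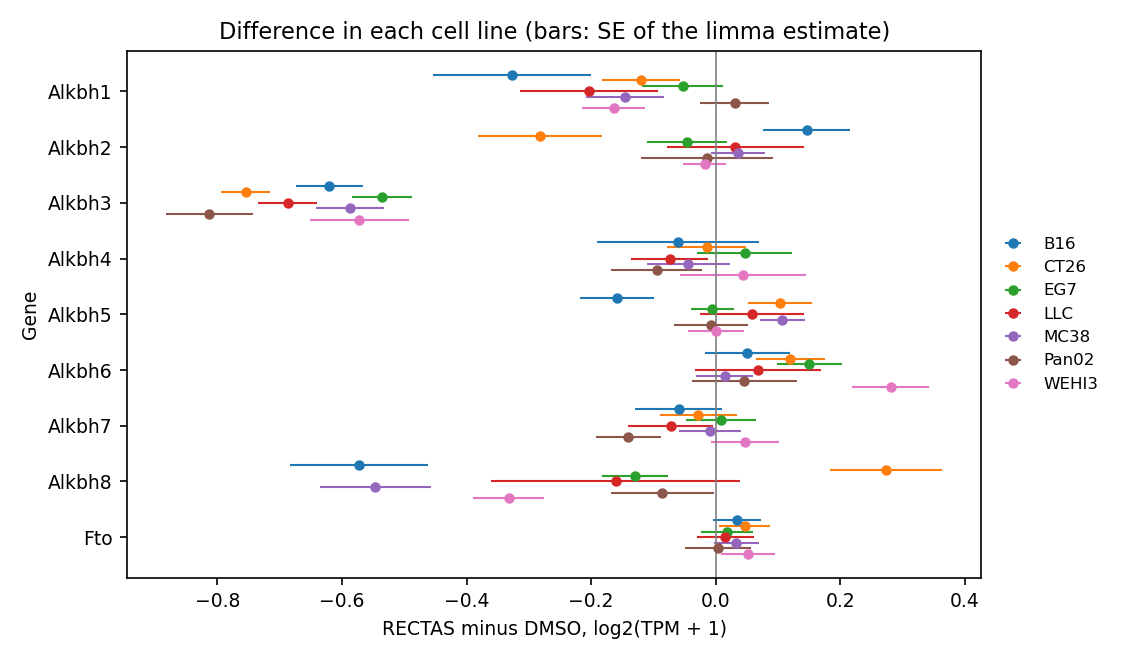
RECTAS minus DMSO on the log2(TPM + 1) scale (x axis) for the 9 members (y axis) in each of the 7 lines (colours); points are the fitted differences and bars their SE. Alkbh3 lies between -0.81 and -0.54, while Alkbh8 lies between -0.57 in B16 and 0.27 in CT26.

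The plot of differences by line shows Alkbh3 as the most negative of the 9 members in each line, with Alkbh8 close to it in B16 and MC38. Alkbh8 carries a methyltransferase domain beside its AlkB domain and completes the modification of wobble uridines in transfer RNA. It averaged 9.33 TPM with RECTAS and 11.3 TPM with DMSO, and fell by 0.22 on the log2 scale (SE 0.0458, limma adjusted p = 0.000330), with a lower mean in 6 of 7 lines. The differences were not equal between lines. An F-test with 6 degrees of freedom gave F = 5.86 (limma adjusted p = 0.0215), a result that 3.07% of the 8775 genes also reached and that no other tested member did, although a second had an unadjusted p under 0.05.

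In B16, Alkbh8 was at 14.5, 10.3 and 12.0 TPM with RECTAS, against 18.0, 18.2 and 19.5 TPM with DMSO, a log2 difference of -0.57 (SE 0.111, limma adjusted p = 0.0428). In MC38 it was at 7.22, 6.46 and 5.97 TPM with RECTAS, against 8.96, 10.6 and 10.5 TPM with DMSO, a difference of -0.55 (SE 0.0889, limma adjusted p = 0.0451). The share of all genes called lower was 3.4% in B16 and 0.878% in MC38. In WEHI3 it was at 10.0, 10.6 and 9.55 TPM with RECTAS, against 12.3, 13.3 and 13.1 TPM with DMSO, a difference of -0.33 (SE 0.0569, limma adjusted p = 0.0382, where 1.53% of genes were called lower). In these 3 lines every RECTAS library was below every DMSO library, an order held by 14.2% of all gene and line pairs. The lines were grouped by their calls, so this order adds no separate support. The calls were close to the threshold: with 1 of the 6 libraries left out in turn, 5 of 6 fits lost the call in B16, with adjusted p up to 0.148, and 5 of 6 in MC38, with adjusted p up to 0.162. All 6 lost it in WEHI3, with adjusted p up to 0.126.

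CT26 went the other way. Its libraries had 9.57, 8.94 and 9.55 TPM with RECTAS, against 7.96, 8.30 and 6.53 TPM with DMSO, so all RECTAS libraries were above all DMSO libraries. The difference of 0.27 (SE 0.0907) did not pass (limma adjusted p = 0.160). In EG7 the libraries were at 9.34, 9.47 and 10.4 TPM with RECTAS and at 10.8, 10.6 and 10.8 TPM with DMSO, which did not overlap but did not pass either (log2 difference -0.13, limma adjusted p = 0.244). Pan02 had the lowest levels, 5.62, 6.10 and 5.05 TPM with RECTAS and 5.99, 6.25 and 5.70 TPM with DMSO, and these overlapped. LLC had 10.7, 10.9 and 13.7 TPM with RECTAS, against 15.2, 9.39 and 15.9 TPM with DMSO. The low DMSO library of LLC is the replicate 2 that stood apart. Without it the LLC difference was -0.38 (limma adjusted p = 0.311), against -0.16 (adjusted p = 0.99992) with it, and the F value over lines was 10.3 (adjusted p = 0.000761). That fit kept replicate 2 of LLC with RECTAS, which lay on the same side of the main axis, so the removal was one-sided. Without line B16, CT26 or MC38 the F-test no longer passed, with adjusted p of 0.111, 0.254 and 0.0643, and it also did not pass without replicate 3 of CT26 in DMSO (adjusted p = 0.0625) or replicate 3 of CT26 in RECTAS (adjusted p = 0.0502).

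Alkbh8 moved along the main axis of replicate variation. Over the 42 libraries its deviations from the group means correlated with the axis at r = -0.81, and 10.7% of the 8775 genes had a larger correlation of either sign. Alkbh5 stood at -0.78 and Alkbh1 at -0.76, with a larger one in 13.0% and 14.8% of genes. Alkbh2 at 0.57 and Alkbh6 at 0.56 were exceeded by 33.8% and 34.5% of genes, and Alkbh3 at -0.05 by 92.9%. In B16 the scores were -0.07, 2.51 and 1.16 SD with RECTAS and -1.18, -1.15 and -1.26 SD with DMSO. These did not overlap, so score and treatment cannot be told apart in B16, also in a fit with the score as a covariate. In CT26 the scores were -2.36, 0.85 and -0.72 SD with RECTAS and -0.09, 0.24 and 2.08 SD with DMSO, which overlapped. The difference of the mean scores was 2.40 SD in B16, -1.48 SD in CT26 and between -0.438 and 0.203 SD in the other lines, and it was not tested. In MC38, where the Alkbh8 difference was close to that in B16, the difference of the mean scores was -0.438 SD. The score was also used as a covariate, an alternative added after seeing the data. It first entered fits of each line alone, with a slope for each line. There the Alkbh8 difference was -0.14 in B16 (limma adjusted p = 0.791) and 0.18 in CT26 (adjusted p = 0.316). In MC38 it was -0.58 (adjusted p = 0.0538) and in WEHI3 -0.33 (adjusted p = 0.0702). A separate fit of all 42 libraries had a slope for the score that was shared by all lines. In it the mean of Alkbh8 over lines was -0.21 (limma adjusted p = 3.17e-07), and the lines still differed with F = 8.74 (adjusted p = 0.00184). Alkbh3 had a mean of -0.65 in this shared fit, and its difference was -0.72 in the fit of B16 alone.

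**Figure D4:**
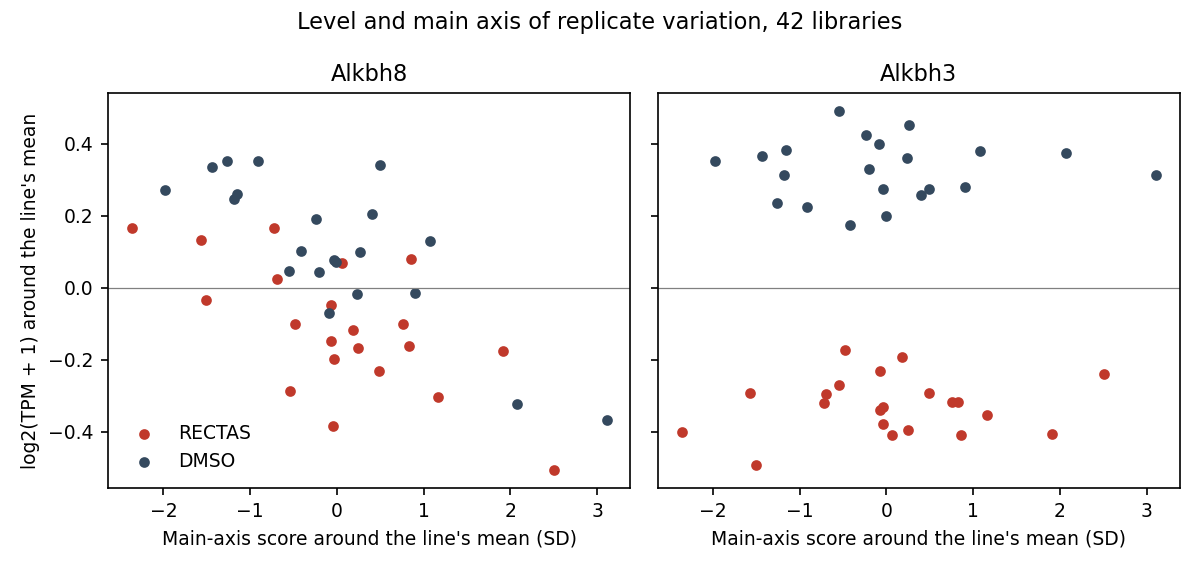
Levels of Alkbh8 (left) and Alkbh3 (right) in each library as log2(TPM + 1) around the mean of its line (y axis), by the score on the main axis of replicate variation in SD around the line's mean (x axis). Each point is 1 of 42 libraries; Alkbh8 declines along the axis with both treatments, while the RECTAS and DMSO libraries of Alkbh3 stay apart along all of it.

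Alkbh1, which acts on transfer RNA and is found in mitochondria as well as the nucleus, averaged 22.6 TPM with RECTAS and 25.1 TPM with DMSO. Its log2 difference of -0.14 passed the test (SE 0.0348, limma adjusted p = 0.00244), and it had a lower mean in 6 of 7 lines. WEHI3 was the line where its groups did not overlap, with 29.3, 26.8 and 25.9 TPM with RECTAS and 30.2, 30.6 and 31.5 TPM with DMSO, but the difference did not pass there (limma adjusted p = 0.171). B16 had the most negative difference at 23.3, 15.7 and 18.3 TPM with RECTAS, against 24.3, 22.7 and 24.9 TPM with DMSO. Alkbh1 also moved along the main axis of replicate variation (r = -0.76), and score and treatment cannot be told apart in B16. With the axis score as a covariate, the mean over lines was -0.13 (limma adjusted p = 2.62e-05). Alkbh1 shares 122 exonic bases, 1.86% of its exonic length, with Slirp on the opposite strand.

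Alkbh6 was the member called higher. It averaged 22.1 TPM with RECTAS and 20.5 TPM with DMSO, a log2 difference of 0.10 (SE 0.0284, limma adjusted p = 0.00548). Its mean was higher in 7 of 7 lines, as was that of Fto, which did not pass. For scale, 9.29% of the 8775 genes were lower in 7 of 7 lines by sign, and the share that was higher is not given here. WEHI3 had 19.3, 19.0 and 20.0 TPM with RECTAS, against 14.9, 17.3 and 15.2 TPM with DMSO, the widest gap of the lines. EG7 had 24.5, 22.5 and 21.5 TPM with RECTAS, against 20.9, 20.1 and 20.2 TPM with DMSO. The groups did not overlap in these lines and overlapped in the other 5. Without WEHI3 the mean difference of Alkbh6 was 0.08 and no longer passed (limma adjusted p = 0.0873). Its call carries the uncertainty of Gm24757, an annotated RNA on the same strand that shares 371 exonic bases, 11.9% of the exonic length of Alkbh6.

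The N6-methyladenosine erasers did not pass. Fto averaged 34.6 TPM with RECTAS and 33.8 TPM with DMSO, a log2 difference of 0.03 (SE 0.0143, limma adjusted p = 0.141). Its differences within lines lay between 0.00 and 0.05 and were above 0 in 7 of 7 lines. Fto shares 2.33% and 1.11% of its exonic bases with 2 antisense genes. Alkbh5 averaged 30.1 TPM with both treatments (difference 0.01, SE 0.0212, limma adjusted p = 0.689). Its groups were apart in opposite directions in B16, at 41.1, 35.4 and 39.7 TPM with RECTAS against 43.5, 44.0 and 42.4 TPM with DMSO, and in MC38, at 32.6, 31.6 and 30.7 TPM with RECTAS against 28.8, 29.9 and 29.2 TPM with DMSO. Neither difference passed in its line (limma adjusted p = 0.136 in B16 and 0.222 in MC38). Alkbh5 also moved along the main axis of replicate variation (r = -0.78), and score and treatment cannot be told apart in B16.

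Alkbh2, the partner of Alkbh3 in DNA repair, averaged 20.3 TPM with RECTAS and 20.2 TPM with DMSO, and its groups overlapped in all 7 lines (difference -0.02, SE 0.0328, limma adjusted p = 0.704). CT26 gave its most negative difference, with 5.95, 7.45 and 6.73 TPM with RECTAS against 9.12, 7.45 and 8.54 TPM with DMSO. Alkbh2 shares 29.5% of its exonic bases with Usp30 on the opposite strand, and the strand setting of the counting is not given in the sources used here, so its level is uncertain. Alkbh7 averaged 17.3 TPM with RECTAS and 17.9 TPM with DMSO (difference -0.04, SE 0.0217, limma adjusted p = 0.247). Pan02, with the highest Alkbh7 level, had 28.9, 27.8 and 30.1 TPM with RECTAS, just under 33.5, 31.7 and 30.8 TPM with DMSO. Alkbh4 averaged 8.87 TPM with RECTAS and 9.03 TPM with DMSO, the lowest level of the family (difference -0.03, SE 0.0336, limma adjusted p = 0.604).

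At baseline, that is in the 21 DMSO libraries alone, the level of each member differed between lines. All 9 passed the F-test across lines, as did 97.3% of the 16108 genes tested, so the size of the spread says more than the test. Alkbh2 had the widest spread, at 40.6 TPM in WEHI3 and 4.59 TPM in Pan02, an 8.84-fold range that exceeded that of 92.2% of 8731 genes. Alkbh8 followed with a 3.11-fold range between B16 and Pan02. The other 7 members had ranges between 1.93-fold for Alkbh6 and 2.56-fold for Alkbh1, at or under the median of 2.57-fold over those 8731 genes. These genes averaged 1 TPM or more in DMSO in every line, so genes missing from a line are left out. Alkbh3 ranged 2.11-fold, which exceeded 30.7% of these genes. The range of Alkbh2 is uncertain, because 29.5% of its exonic bases are shared with Usp30 on the opposite strand.

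**Figure D5:**
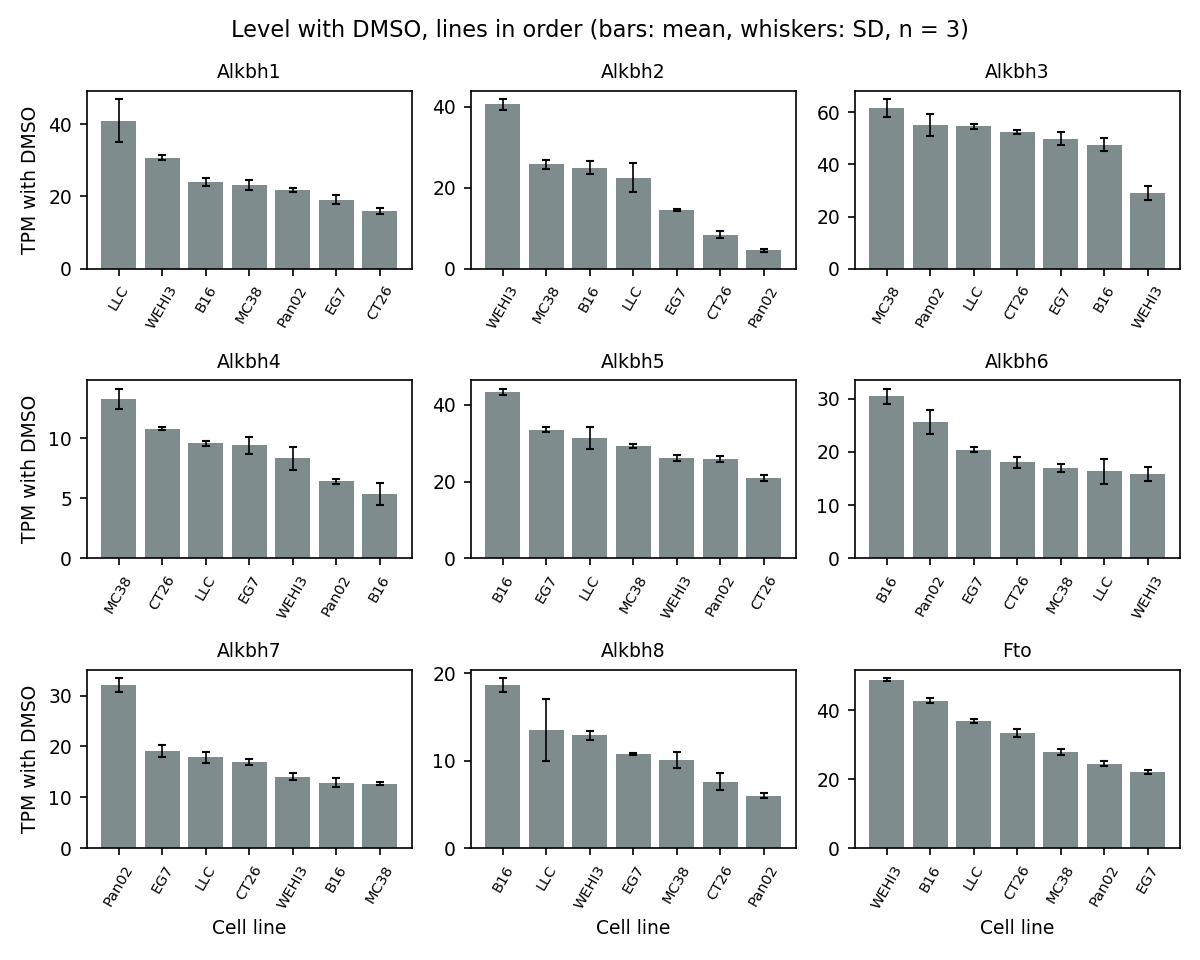
DMSO levels of the 9 members in TPM (y axis, starting at 0, 1 panel for each member) by line (x axis, highest first); bars are means and whiskers the SD of 3 libraries. Alkbh2 spans 4.59 to 40.6 TPM between Pan02 and WEHI3, while Alkbh3 spans 29.2 to 61.7 TPM between WEHI3 and MC38.

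The plot of baseline levels shows an order of lines that differs from member to member. For Alkbh3 the order was MC38 at 61.7 ± 3.49 TPM, Pan02 at 55.1 ± 4.28, LLC at 54.6 ± 1.04, CT26 at 52.6 ± 0.738, EG7 at 49.97 ± 2.32, B16 at 47.6 ± 2.45 and WEHI3 at 29.2 ± 2.70 (SD, n = 3 each). MC38 exceeded Pan02 (limma adjusted p = 0.0317) and B16 exceeded WEHI3 (limma adjusted p = 1.90e-08). The neighbours between Pan02 and B16 in this order did not pass, with adjusted p between 0.310 and 0.965, and lines farther apart in the order were not compared. Over the 9 members, 27 of 54 pairs of neighbouring lines differed, near the 47% over all genes and pairs.

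The demethylases of N6-methyladenosine differed in their order. Fto had 6 of 6 steps that passed, with WEHI3 at 48.9 TPM, B16 at 42.8, LLC at 36.98, CT26 at 33.4, MC38 at 27.8, Pan02 at 24.5 and EG7 at 21.99 TPM. Alkbh5 was highest in B16 at 43.3 TPM, ahead of EG7 at 33.5 TPM (limma adjusted p = 3.58e-06), and lowest in CT26 at 20.9 TPM. EG7 was thus last of the lines for Fto and second for Alkbh5.

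For Alkbh2, WEHI3 was followed by MC38 at 25.8, B16 at 24.97, LLC at 22.5, EG7 at 14.4, CT26 at 8.37 and Pan02 at 4.59 TPM. All steps passed except those between MC38 and B16 (limma adjusted p = 0.696) and between B16 and LLC (adjusted p = 0.127). WEHI3, the line with the most Alkbh2, had the least Alkbh3, with the level of Alkbh2 uncertain as above. Alkbh1 was highest in LLC at 41.0 TPM and lowest in CT26 at 15.99 TPM, and 3 of 6 steps passed. Alkbh8 was highest in B16 at 18.6 TPM, above LLC at 13.5 (limma adjusted p = 0.00404), and lowest in Pan02 at 5.98 TPM, a step from CT26 at 7.60 TPM that did not pass (adjusted p = 0.0567).

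Alkbh7 was highest in Pan02 at 31.99 TPM, well above EG7 at 19.1 TPM (limma adjusted p = 3.48e-09), and MC38 was last at 12.7 TPM, next to B16 at 12.9 TPM (adjusted p = 0.824). Alkbh6 was highest in B16 at 30.5 TPM and then in Pan02 at 25.6 TPM, while the remaining steps after EG7 at 20.4 TPM did not pass. Alkbh4 was highest in MC38 at 13.3 TPM and lowest in B16 at 5.37 TPM.

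The genes whose level was most like that of Alkbh3 were ranked by Pearson r over the 14 group means, among 8775 genes and without those that overlap it. Among them were Zfp326 (r = 0.868), Foxk2 (0.856), Prpf40b (0.790) and Mettl16 (0.790). The points share libraries, and the treatment difference of Alkbh3 is part of the measure, so this is a description. Zfp326, a zinc finger protein, averaged 22.3 TPM with RECTAS and 28.1 TPM with DMSO. Foxk2, a forkhead transcription factor, was at 44.0 TPM with RECTAS and 51.9 TPM with DMSO. Prpf40b, a pre-mRNA processing factor, was at 13.2 TPM with RECTAS and 15.5 TPM with DMSO.

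Genes that work beside the family were counted in 4 lists, to be read against the 25.8% of all genes that passed. The lists were made with earlier results of these data known. The genes named, Riox2 among them, have the smallest p of their list, so their p-values are a description. Of the alkylation repair list, 16 of 18 genes were tested, 3 rose, 4 fell and 9 did not pass, with a median log2 difference of -0.01. Mpg, the glycosylase that excises alkylated purines, fell by 0.12 on the log2 scale (limma adjusted p = 9.73e-05), to 18.7 TPM with RECTAS against 20.3 TPM with DMSO. Rad51c, a homologous recombination protein, rose by 0.17 (limma adjusted p = 0.000163). Apex1, the abasic-site endonuclease, rose by 0.07 (adjusted p = 0.000195) and Parp1, a sensor of DNA breaks, fell by 0.06 (adjusted p = 0.000765). Mpg shares 35.7% of its exonic bases with Nprl3 and Apex1 shares 61.7% with Pip4p1, both on the opposite strand, so these values are uncertain.

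Of the N6-methyladenosine writers and readers, 16 of 20 were tested, 3 fell and 13 did not pass, with a median of -0.01. Mettl16, which methylates U6 snRNA and the Mat2a transcript, fell by 0.22 (limma adjusted p = 6.17e-11), to 34.0 TPM with RECTAS against 39.4 TPM with DMSO, and was lower in 7 of 7 lines. Mettl3, the catalytic subunit of the messenger RNA writer, fell by 0.07 (adjusted p = 0.00566), with 18.4% of its exonic bases shared with Tox4 on the opposite strand. Mettl5, a writer of ribosomal RNA, fell by 0.10 (adjusted p = 0.0267) and shares 6.93% with Ssb. Ythdc1, the nuclear reader, was at 40.6 TPM with RECTAS and 42.9 TPM with DMSO (limma adjusted p = 0.102).

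In the transfer RNA modification list, all 21 genes were tested, 3 rose, 4 fell and 14 did not pass, with a median of -0.02. Its members included subunits of the same enzyme with opposite sign. Trmt6 rose by 0.28 (limma adjusted p = 2.03e-16), to 50.7 TPM with RECTAS against 41.9 TPM with DMSO, and was higher in 7 of 7 lines. Trmt61a, the catalytic partner of Trmt6 in the N1-methyladenosine transferase of transfer RNA, fell by 0.10 (limma adjusted p = 0.000907), to 34.6 TPM with RECTAS against 37.0 TPM with DMSO. Wdr4, the partner of Mettl1 in the transfer RNA 7-methylguanosine transferase, fell by 0.26 (limma adjusted p = 7.14e-11), and shares 10.8% of its exonic bases with an antisense gene.

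Of the other alpha-ketoglutarate-dependent dioxygenases, 24 of 34 were tested, 4 rose, 3 fell and 17 did not pass, with a median of 0.01. Riox2, a ribosomal protein hydroxylase, fell by 0.55 (limma adjusted p = 4.14e-25), to 22.8 TPM with RECTAS against 33.7 TPM with DMSO, and was lower in 7 of 7 lines, with 22.4% of its exonic bases shared with Crybg3 on the opposite strand. P4ha1, a collagen prolyl hydroxylase, fell by 0.12 (limma adjusted p = 3.50e-07). Jmjd6, a lysyl hydroxylase of splicing factors, rose by 0.07 (adjusted p = 2.11e-05) and shares 3.66% of its exonic bases with Mettl23, and Kdm3a, a histone demethylase, rose by 0.14 (adjusted p = 0.000118).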

How the data were processed

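Per the labels, RNA came from the RNeasy Mini kit and libraries from the TruSeq stranded mRNA kit. HISAT2 2.2.0, RSEM 1.3.0 and GRCm38 appear in the submitters' processing notes, without roles. The authors deposited TPM per gene, 1 file per library, with sums between 999998 and 1000003; neither strand setting nor annotation release is given in the sources used here. TPM holds no read counts, so no counting interval is given. Gene IDs were looked up in GENCODE M21 on GRCm38 (55141 of 55401 matched).

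Tests used limma 3.58.1 (R 4.3.3) on log2(TPM + 1) (moderated variance, intensity trend, two-sided, Benjamini-Hochberg over all genes tested, adjusted p under 0.05). Genes averaging 1 TPM or more in each line entered a fit of all 42 libraries, which yielded the mean of 7 within-line differences and the F-test that they vary. Each line was also fitted alone, and the 21 DMSO libraries gave the baseline tests. Alternatives changed the pseudocount, filter, scaling, trend, block, libraries and lines.

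The text names all members, genes that overlap Alkbh3, the 4 genes with the smallest p in each list, and the 5 genes most like Alkbh3. Of these, 2 genes are not reported here. The members and lists were chosen with earlier results of these data known.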

Additional observations from a re-analysis of the deposited data

Results flagged for a closer look

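The difference between RECTAS and DMSO for Alkbh8 was not the same in the 7 lines. The F-test of the difference itself gave a limma adjusted p of 0.0215. The log2 difference was -0.57 in B16, -0.55 in MC38 and -0.33 in WEHI3, and 0.27 in CT26. The F-test did not pass without line B16 (adjusted p = 0.111), CT26 (0.254) or MC38 (0.0643), nor without replicate 3 of CT26 in DMSO (0.0625) or in RECTAS (0.0502). The mean score on the main axis of replicate variation differed by 2.40 SD between RECTAS and DMSO in B16, where the libraries did not overlap, and by -1.48 SD in CT26, where they did. With that score as a covariate in the fit of all libraries, the F-test gave a limma adjusted p of 0.00184. In a separate fit of B16 alone with the score, the difference was -0.14 (limma adjusted p = 0.791). Score and treatment cannot be told apart in B16, so neither fit says which of them the B16 difference belongs to. In the single-line fits with the score, the calls in B16, MC38 and WEHI3 were lost, with differences of -0.58 in MC38 and -0.33 in WEHI3.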

How the results depend on the processing

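The mean difference of Alkbh3 stayed between -0.66 and -0.64 when any 1 library was left out, and its direction held under all 15 other alternatives. Its values in single lines moved more. In B16 the difference was -0.62 as deposited, -0.53 with median-ratio scaling and -0.72 with the axis covariate. In CT26 it was -0.75 as deposited and -0.79 with median-ratio scaling. With that scaling EG7 was at -0.56, so B16 and not EG7 had the smaller difference. The count of other members called on average was 3 when any 1 library was left out and within 1.5 times of 3 under the other alternatives, although Alkbh6 lost its call without line WEHI3. With a minimum of 5 TPM Alkbh2 was not tested. The 3 calls of single lines were the least stable. They became 0 with no filter on low values, 1 with no intensity trend and 0 with the axis score as a covariate, with 12, 12 and 11 pairs at an unadjusted p under 0.05 in limma, and ranged between 2 and 4 with 1 library left out. The count of members varying between lines, 1, was 0 without line B16, CT26 or MC38 (1 member at an unadjusted p under 0.05 each), 2 without line LLC, and 0 to 1 with 1 library left out. The neighbouring lines that differ at baseline, 27, ranged between 25 and 34, with 34 reached without replicate 2 of LLC in DMSO. Over the 4 lists, 24 genes were called, and 22 to 27 with 1 library left out. The N6-methyladenosine list had 5 calls in place of 3 with the axis covariate, and the dioxygenase list 4 in place of 7 without line EG7. Replicate numbers are shared between RECTAS and DMSO. The deviations of same-numbered libraries correlated at -0.172 to 0.402, with the highest value for replicate 2 of LLC. Of 21 pairs, 5 were over 0.1, and 7 of 21 RECTAS libraries correlated best with their own number. These values show no pairing by number across the lines, but with 3 libraries in each group they cannot exclude one. With the replicate number as a block, the other members called on average were again 3 and those varying between lines 1, while the single-line calls were 0, with 12 pairs at an unadjusted p under 0.05 in limma. The causes of these changes were not tested. Depth is unknown, so what sequencing depth limits could not be measured.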
